A study of Rattus norvegicus with 18 samples.

Results

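Mast cells store serine proteases and a carboxypeptidase in their granules and carry the high-affinity IgE receptor on their surface. Their transcripts were followed here in the rat colon through the course of colitis. The set was 10 genes: Mcpt1, Mcpt2, Mcpt9, Mcpt10 and Cma1 for chymase-family proteases, Tpsab1 and Tpsb2 for tryptases, Cpa3 for carboxypeptidase A3, and Fcer1a and Ms4a2 for the IgE-binding alpha chain and the beta chain of the receptor. A gene was read from the probe sets that the platform annotation assigns to its symbol alone. That gave 10 probe sets of the 31042 tested and 9 genes of the 14217 with such a probe set. Mcpt2 had none, and Ms4a2 had 2.

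The study induced colitis with trinitrobenzene sulfonic acid, or TNBS, which couples to colonic proteins and makes them immunogenic once ethanol has opened the mucosal barrier. TNBS rats were sampled on day 2, day 5, day 7 or day 14 after 1 enema of 10 mg TNBS in 50% ethanol, with 3 arrays a day. Control rats were healthy, received a saline enema and gave 6 arrays, and no sampling day is given for them. Total RNA of the full-thickness colon was read on an Affymetrix rat genome array, 1 sample per array and 18 arrays in all. The TNBS samples were selected on myeloperoxidase activity, loss of body weight and the ratio of colon weight to length, so they stand for inflamed animals and not for all animals given TNBS. No group received ethanol without TNBS, so the agent and its vehicle cannot be told apart. The sources used here do not give strain, sex or age. The labels call the arrays replicates without saying how many rats each stands for, so p-values measure the spread between these arrays.

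Mast cells of the gut wall fall into a mucosal kind and a connective-tissue kind, which store different proteases. In the rat, protease II belongs to mucosal mast cells, and protease I, Cma1, the tryptases and carboxypeptidase A3 are typical of connective-tissue mast cells. Cross-linking of IgE on the receptor releases the granules, and the receptor's alpha chain binds IgE, its beta chain amplifies the signal and its gamma chain carries it inward. The RefSeq entry of the gene read here as Mcpt1 lists both protease I and protease II among its synonyms (rMCP-1, rMCP-2, rMCP-I and rMCP-II), and that table has no gene named Mcpt2. The Mcpt1 reading is therefore not assigned to either protease. In a homogenate of the whole wall, fewer mast cells and less RNA per mast cell cannot be told apart.

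Most of the chymase genes lie side by side. In the rat assembly GRCr8, 17 protein-coding genes run from Cma1 to Mcpt10 on chromosome 15, with Mcpt9 directly before Mcpt1 and Mcpt1l1 between Mcpt1 and Mcpt10. RefSeq windows that span 250 bases before to 50 bases after the transcription start were found for 7 members, and not for Mcpt10 or Ms4a2. The windows of Mcpt1, Cpa3, Cma1 and Mcpt9 are printed because Mcpt1 and Cma1 passed in opposite directions below, Cpa3 had a course of similar shape to that of Mcpt1, and Mcpt9 is the direct neighbour of Mcpt1. They cover chr15:33841356-33841655 on the plus strand for Mcpt1, chr2:104673188-104673487 on the minus strand for Cpa3, chr15:33390084-33390383 on the minus strand for Cma1 and chr15:33827180-33827479 on the plus strand for Mcpt9. Each is written 5′ to 3′, with capitals for GATAA, the core that GATA factors bind.
Mcpt1: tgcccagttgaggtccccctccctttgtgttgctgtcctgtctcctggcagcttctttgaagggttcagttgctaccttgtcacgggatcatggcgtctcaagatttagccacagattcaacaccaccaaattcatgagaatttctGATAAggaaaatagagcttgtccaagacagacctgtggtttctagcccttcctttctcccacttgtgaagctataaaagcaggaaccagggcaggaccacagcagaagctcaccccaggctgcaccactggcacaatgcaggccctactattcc
Cpa3: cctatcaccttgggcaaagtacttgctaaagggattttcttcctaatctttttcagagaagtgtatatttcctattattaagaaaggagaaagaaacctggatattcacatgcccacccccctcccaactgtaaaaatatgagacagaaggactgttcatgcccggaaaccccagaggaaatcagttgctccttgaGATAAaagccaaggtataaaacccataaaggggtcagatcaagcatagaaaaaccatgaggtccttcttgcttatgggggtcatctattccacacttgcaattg
Cma1: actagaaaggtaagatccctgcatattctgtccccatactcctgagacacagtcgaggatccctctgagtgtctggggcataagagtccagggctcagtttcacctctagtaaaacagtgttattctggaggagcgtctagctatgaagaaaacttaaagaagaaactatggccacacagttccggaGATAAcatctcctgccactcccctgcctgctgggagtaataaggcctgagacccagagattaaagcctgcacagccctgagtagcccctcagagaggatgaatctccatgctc
Mcpt9: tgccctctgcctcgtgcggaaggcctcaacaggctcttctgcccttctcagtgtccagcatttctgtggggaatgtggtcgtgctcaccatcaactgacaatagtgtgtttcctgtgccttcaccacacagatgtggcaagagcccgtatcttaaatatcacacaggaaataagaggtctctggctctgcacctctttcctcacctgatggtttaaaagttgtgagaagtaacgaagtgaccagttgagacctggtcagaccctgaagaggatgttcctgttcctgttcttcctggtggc

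GATAA was searched on both strands and is in 26.5% of all 33469 such windows. Of the 7 member windows, 5 hold it. It begins 104 bases before the start in Mcpt1, 63 bases before it in Cma1 and 54 bases before it in Cpa3. Mcpt9 and Tpsb2 hold none within the window. TATAAA, which is in 14.2% of all windows on either strand, begins 33 bases before the start of Mcpt1 and 40 bases before that of Cpa3. The Mcpt1 window is 90.1% identical over its aligned bases to that of Mcpt1l3 and 55.6% identical to that of its neighbour Mcpt9. By the same count Cma1 and Cpa3, on different chromosomes, gave 67.5%, so 55.6% is not read as likeness. The Mcpt9 window is 97.2% identical to that of Mcpt8l2 and 96.9% identical to that of Mcpt8. The windows of Mcpt1 and Mcpt9 thus have near copies in the cluster, but probe sets read transcripts, whose likeness was not compared. A probe set of Mcpt1, Mcpt9 or Mcpt10 may also read a relative, and these readings are uncertain to that degree.

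The 18 arrays were not on a common scale as deposited. Array medians lay between 5.02 and 5.07 on the 12 TNBS arrays and between 4.27 and 4.30 on the 6 control arrays. The extraction label also differs, which is Trizol in TNBS and, in controls, the name of a manufacturer's manual, so treatment and extraction entry cannot be told apart. Levels against control are therefore given as log2 signals after quantile normalization, which sets every array to 1 distribution. The words rose and fell are kept for genes to which limma gave a Benjamini-Hochberg adjusted p under 0.05 over all 31042 probe sets, in the same direction, both on that scale and on the deposited one. The deposited condition removed no rise, as 2835 probe sets were higher on day 2 by either criterion and the counts were equal on every day. It cut the falls on day 2 from 3065 to 162 probe sets. A rise on both scales is therefore no better supported than a rise after normalization. Over all probe sets, the median log2 difference from control on the deposited scale was 0.59 on day 2, 0.57 on day 5, 0.54 on day 7 and 0.58 on day 14. It lay between -0.04 and -0.01 after quantile normalization. Day 2 replicate 1 stood apart from its group, with a mean correlation of 0.99 with the day 14 arrays and of 0.97 with the other day 2 arrays.

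The chymase gene Mcpt1 fell during active colitis and lay inside the control range on day 14. It read 6.17, 5.77 and 5.78 on TNBS day 2, where all 3 arrays lay below the lowest control. It read 8.22, 5.33 and 5.38 on TNBS day 5, and 5.80, 6.04 and 7.48 on TNBS day 7. On each of these days 1 array stood high and overlapped the controls. On TNBS day 14 it read 8.69, 8.84 and 8.53, and the control arrays read 7.04 at the lowest, 8.52 at the median and 9.70 at the highest. The 3 day 14 arrays differed little among themselves and lay inside the control range.

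Mcpt1 was lower than control by a log2 difference of -2.56 ± 0.61 (SE) on day 2, a 5.90-fold lower signal (adjusted p = 0.00885). The deposited scale gave -1.93 (adjusted p = 0.00901), a 3.81-fold lower signal, so the size depends on the scale and the direction does not. The difference was -2.16 on day 5 (adjusted p = 0.0162, deposited scale -1.55 and 0.0303) and -2.03 on day 7 (adjusted p = 0.021, deposited scale -1.40 and 0.0475). On day 14 it was 0.22 (adjusted p = 0.862). The day 2 call held without any single array, with adjusted p from 0.00441 to 0.0417, and without day 2 replicate 1 the difference was -2.69 (adjusted p = 0.0157). The day 5 call was lost without day 5 replicate 2 (adjusted p = 0.11) or replicate 3 (0.0975), and the day 7 call without day 7 replicate 1 (0.105) or replicate 2 (0.0792).

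The place of a probe set within its own array does not depend on the scale. Quantile normalization keeps that order, so percentiles restate the normalized values and are not a separate test. Mcpt1 stood at percentile 63.4 to 68.3 of its array on day 2, 57.8 to 89.7 on day 5, 63.8 to 83.2 on day 7 and 91.7 to 93.5 on day 14. Control arrays had it between percentile 78.6 and 96.8. On day 2 these ranges did not overlap, and on day 14 all arrays lay within the control range. Probe affinity sets part of a percentile, so it is compared between arrays and not between genes. Over the 18 arrays the median percentile was 85.1 for Mcpt1, 56.3 for Cpa3, 17.0 for Fcer1a and 15.2 for Ms4a2. The files give no detection calls, and a gene near the bottom of the scale may be at background.

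**Figure D1:**
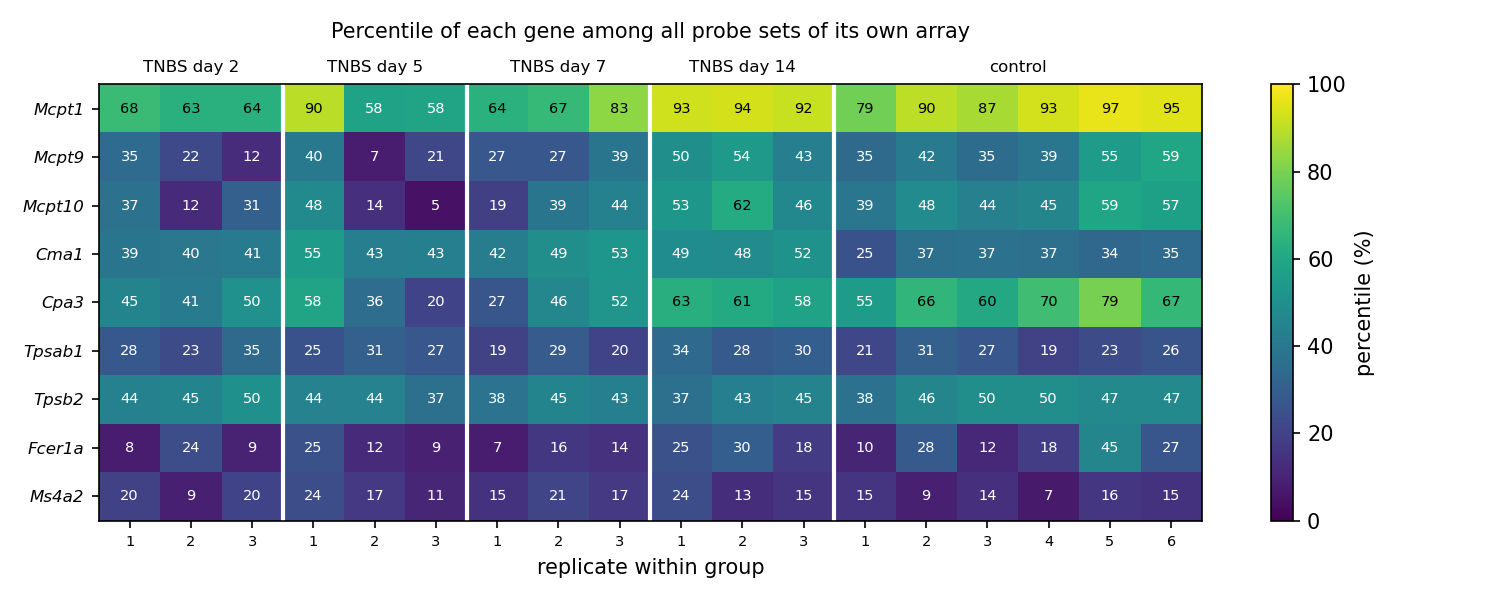
Percentile of each gene's signal among all probe sets of the same array (colour and number, in percent). Columns are arrays by group and replicate and rows are the 9 measured genes. Mcpt1 lies between percentile 57.8 and 68.3 on 7 of the 9 arrays of days 2, 5 and 7 and at 91.7 or above on day 14, and Fcer1a and Ms4a2 stay in the dark, low part of the scale on most arrays.

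Cpa3, the mast cell exopeptidase that trims peptides after chymases cut them, followed a course of similar shape, but passed on only 1 of the scales. It read 4.50, 4.32 and 4.82 on TNBS day 2, 5.38, 4.07 and 3.59 on day 5, and 3.76, 4.58 and 4.94 on TNBS day 7. It read 5.72, 5.60 and 5.33 on TNBS day 14, against 5.11 at the lowest, 6.01 at the median and 7.12 at the highest on control arrays. All arrays of days 2 and 7 lay below the controls on this scale, and day 5 replicate 1 overlapped them.

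After quantile normalization the Cpa3 difference from control was -1.46 ± 0.40 on day 2 (adjusted p = 0.0189), -1.66 ± 0.40 on day 5 (0.00644) and -1.58 ± 0.40 on day 7 (0.00774). On the deposited scale it was -0.65 (adjusted p = 0.154), -0.87 (0.0644) and -0.79 (0.0906) on the same days, so Cpa3 did not pass on both scales. The calls on the normalized scale were lost without day 2 replicate 2 (adjusted p = 0.0824), day 5 replicate 3 (0.051) and day 7 replicate 1 (0.061). On day 14 the difference was -0.45 (adjusted p = 0.514).

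Mcpt9 and Mcpt10 belong to the protease group around Mcpt8, which has been described in mucosal mast cells of the rat. Mcpt10 read 4.14, 3.37 and 3.89 on TNBS day 2, 4.66, 3.42 and 3.15 on day 5, and 3.55, 4.19 and 4.45 on TNBS day 7. It read 4.98, 5.63 and 4.58 on TNBS day 14. Its control arrays ran from 4.22 through a median of 4.60 to 5.41. The lowest readings were on days 2, 5 and 7, and day 14 overlapped the controls with 1 array above all of them. The difference from control was -0.96 ± 0.35 on day 2 (adjusted p = 0.0653), -1.02 ± 0.35 on day 5 (0.0403) and -0.69 ± 0.35 on day 7 (0.151). The day 5 call was not met on the deposited scale (-0.31, adjusted p = 0.41). It was also lost without day 5 replicate 2 or 3, or without control replicate 2, 5 or 6, with adjusted p from 0.0541 to 0.208.

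Mcpt9 read 4.05, 3.63 and 3.38 on TNBS day 2, 4.27, 3.23 and 3.61 on day 5, and 3.78, 3.78 and 4.20 on TNBS day 7. It read 4.78, 5.05 and 4.39 on TNBS day 14. Control arrays read 4.03 at the lowest, 4.28 at the median and 5.42 at the highest. Its differences were -0.85 ± 0.30 on day 2 (adjusted p = 0.0633), -0.83 ± 0.30 on day 5 (0.0543) and -0.61 ± 0.30 on day 7 (0.149), none past the threshold. The day 2 difference passed without control replicate 1 (adjusted p = 0.0466) or day 2 replicate 1 (0.0471). The day 5 difference passed without control replicate 1 (0.0377), control replicate 3 (0.0414) or day 5 replicate 1 (0.0246).

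A further probe set is annotated to Mcpt8l2, Mcpt9, Mcpt10 and Mcpt8 together. It gave 6.63, 5.59 and 6.10 on TNBS day 2, 7.66, 5.54 and 5.74 on day 5, and 5.54, 6.86 and 7.16 on TNBS day 7. It read 7.46, 7.98 and 7.55 on TNBS day 14. Its control arrays ran from 6.37 through a median of 6.97 to 7.67. No comparison with control passed after quantile normalization, with a difference of -0.92 on day 2 (adjusted p = 0.159) and 0.64 on day 14 (0.382).

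**Figure D2:**
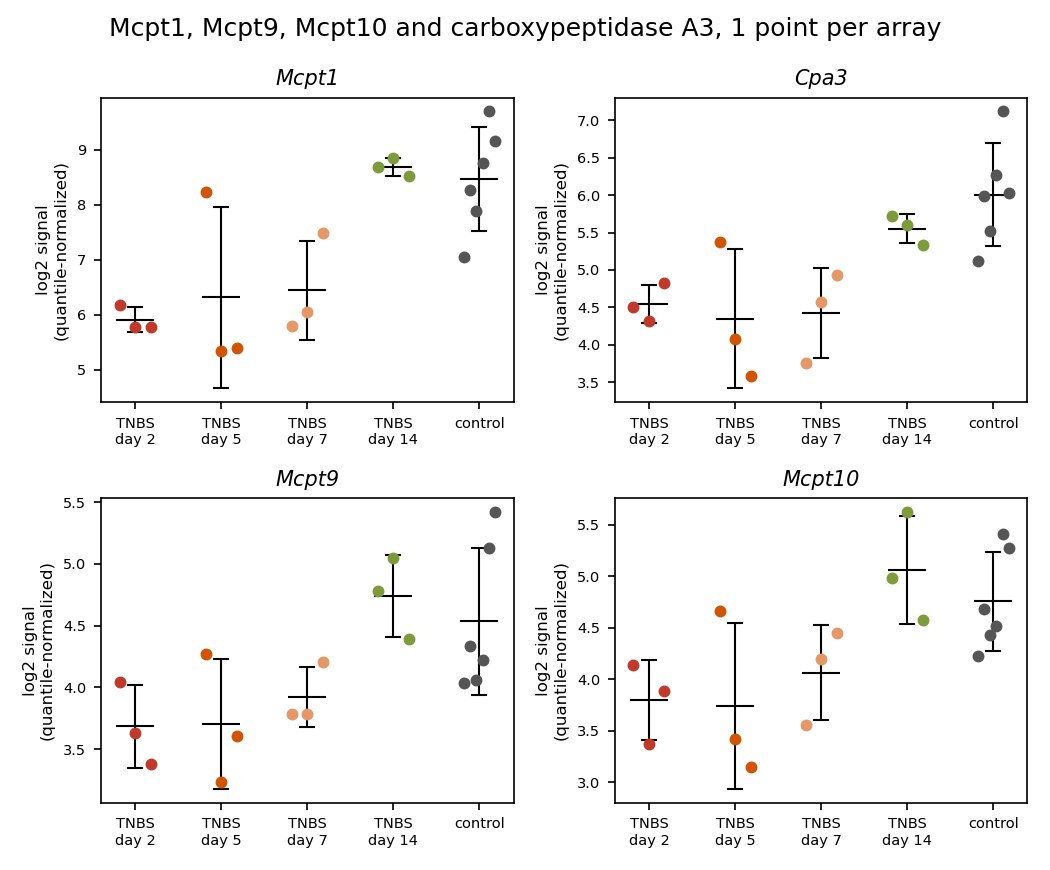
Quantile-normalized log2 signal of Mcpt1, Cpa3, Mcpt9 and Mcpt10, 1 point per array, with the group mean (wide bar) and SD (error bar), for 3 arrays per TNBS day and 6 control arrays. Mcpt1 lies at 5.77 to 6.17 on day 2 and at 8.53 to 8.84 on day 14, and in all 4 panels day 5 replicate 1 stands above the other day 5 arrays.

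Cma1, the chymase of connective-tissue mast cells, rose on days 5, 7 and 14. It read 4.20, 4.23 and 4.31 on TNBS day 2, 5.11, 4.39 and 4.41 on day 5, and 4.36, 4.75 and 4.97 on TNBS day 7. It read 4.72, 4.69 and 4.89 on TNBS day 14. Control arrays read 3.72 at the lowest, 4.08 at the median and 4.14 at the highest. No TNBS array overlapped the controls on any day. As percentiles within the array, these values were 38.9 to 41.3 on day 2 and 42.9 to 54.7 on day 5. They were 42.2 to 52.7 on day 7 and 48.4 to 51.5 on day 14, against 25.1 to 37.3 on control arrays.

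The Cma1 difference from control was 0.61 ± 0.15 on day 5 (adjusted p = 0.00866), 0.67 ± 0.15 on day 7 (0.00447) and 0.74 ± 0.15 on day 14 (0.00547), a 1.67-fold higher signal on day 14. On the deposited scale these were 1.27, 1.33 and 1.40, so the size was larger as deposited and the call was the same. Every rise after normalization was also called as deposited, so this second call adds no support. On day 2 the difference was 0.23 ± 0.15 (adjusted p = 0.331) after normalization and 0.88 (0.000136) as deposited. The day 5 call was lost without day 5 replicate 1 (adjusted p = 0.0623), the highest array. Cma1 stood in the lower or middle part of every array.

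The tryptases Tpsab1 and Tpsb2, trypsin-like proteases stored on heparin in the granule, did not pass against control on any day after quantile normalization. Tpsab1 ran from 3.65 to 4.03 on TNBS day 2, 3.71 to 3.90 on day 5, 3.56 to 3.83 on day 7 and 3.82 to 4.01 on day 14, against 3.56 to 3.89 on control arrays. Its largest difference was 0.19 ± 0.10 on day 14 (adjusted p = 0.232). Tpsb2 ran from 4.45 to 4.79 on TNBS day 2, 4.12 to 4.48 on day 5, 4.17 to 4.51 on day 7 and 4.12 to 4.50 on day 14, against 4.16 to 4.77 on control arrays. Its largest difference was -0.23 ± 0.14 on day 14 (adjusted p = 0.315). On the deposited scale both were higher than control on every day, from 0.47 to 0.75, with the same sign and about the same size as the median of all probe sets, so no direction is given for them.

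The IgE receptor chains read near the bottom of the scale and did not pass on any day after quantile normalization. Fcer1a read 3.24, 3.68 and 3.29 on TNBS day 2, 3.71, 3.37 and 3.28 on day 5, and 3.23, 3.48 and 3.43 on TNBS day 7. It read 3.71, 3.87 and 3.51 on TNBS day 14. Control arrays read 3.32 at the lowest, 3.65 at the median and 4.52 at the highest. The groups overlapped on every day, and the differences were -0.31 on day 2, -0.26 on day 5, -0.34 on day 7 and -0.02 on day 14, with adjusted p between 0.251 and 0.963. Fcer1a stood between percentile 7.43 and 45.4 of its arrays. The Ms4a2 probe set with the higher mean ran from 3.22 to 3.68 over the 18 arrays and differed from control by 0.10 to 0.13 (adjusted p 0.348 to 0.527). The other Ms4a2 probe set differed by -0.16, -0.15, -0.25 and 0.08 on days 2, 5, 7 and 14, so both readings of the gene disagreed in sign on days 2 to 7, and neither passed.

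**Figure D3:**
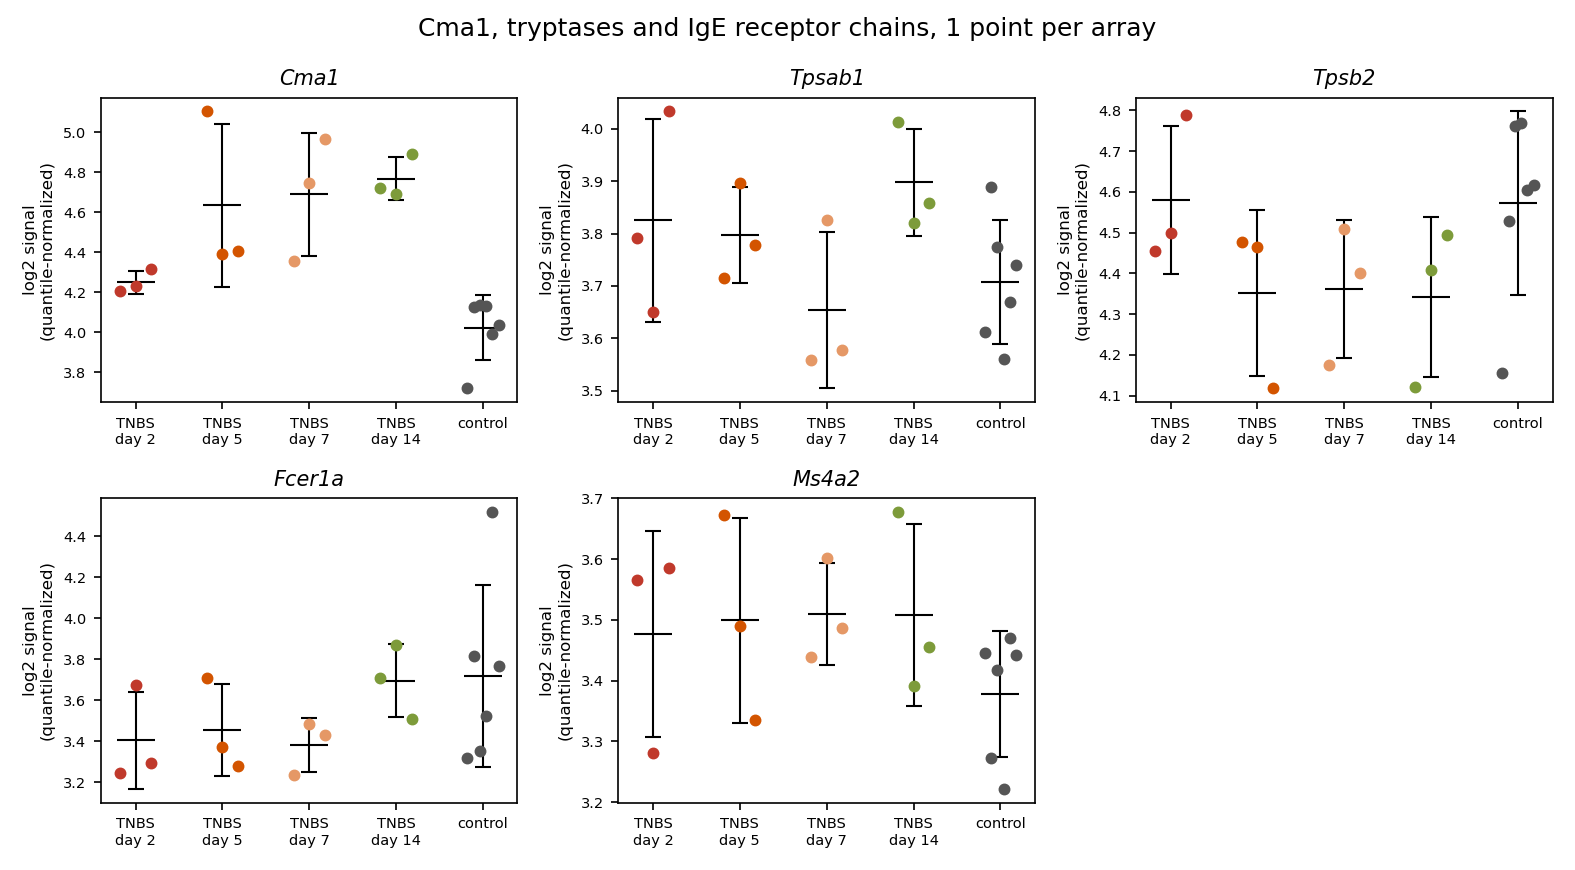
Quantile-normalized log2 signal of Cma1, Tpsab1, Tpsb2, Fcer1a and Ms4a2, 1 point per array, with the group mean (wide bar) and SD (error bar), for 3 arrays per TNBS day and 6 control arrays. All TNBS points of Cma1 lie above the highest control at 4.14, and the groups overlap in the other 4 panels.

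Over the 9 measured genes, the numbers that passed are read against all probe sets. On day 2, 2 genes passed as lower after quantile normalization (Mcpt1 and Cpa3) and none as higher, where 9.87% of all probe sets passed as lower and 9.13% as higher. On both scales 1 gene was lower (Mcpt1), against 0.522% of all probe sets lower and 9.13% higher. On day 5, 3 were lower (Mcpt1, Mcpt10 and Cpa3) and 1 higher (Cma1), against 14.5% and 12.1% of all probe sets. On both scales 1 was lower and 1 higher, against 1.09% and 12.1%.

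On day 7, 2 were lower and 1 higher, against 15.9% and 12.4% of all probe sets, and on both scales 1 was lower and 1 higher, against 1.07% and 12.4%. On day 14 none was lower and 1 was higher on either criterion. The background was then 6.09% lower and 5.61% higher after normalization and 0.135% lower and 5.61% higher on both scales. Cma1 stood in the upward share on days 5, 7 and 14 and Mcpt1 in the downward share on days 2, 5 and 7. The median log2 difference of the 9 genes was -0.31, -0.26, -0.33 and 0.19 on days 2, 5, 7 and 14 after normalization, where that of all probe sets lay between -0.04 and -0.01. These medians are the values of Fcer1a on days 2, 5 and 7 and of Tpsab1 on day 14. Neither gene passed on any day after normalization and Fcer1a read near the bottom of the scale, so the medians do not show a fall of the whole set.

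**Figure D4:**
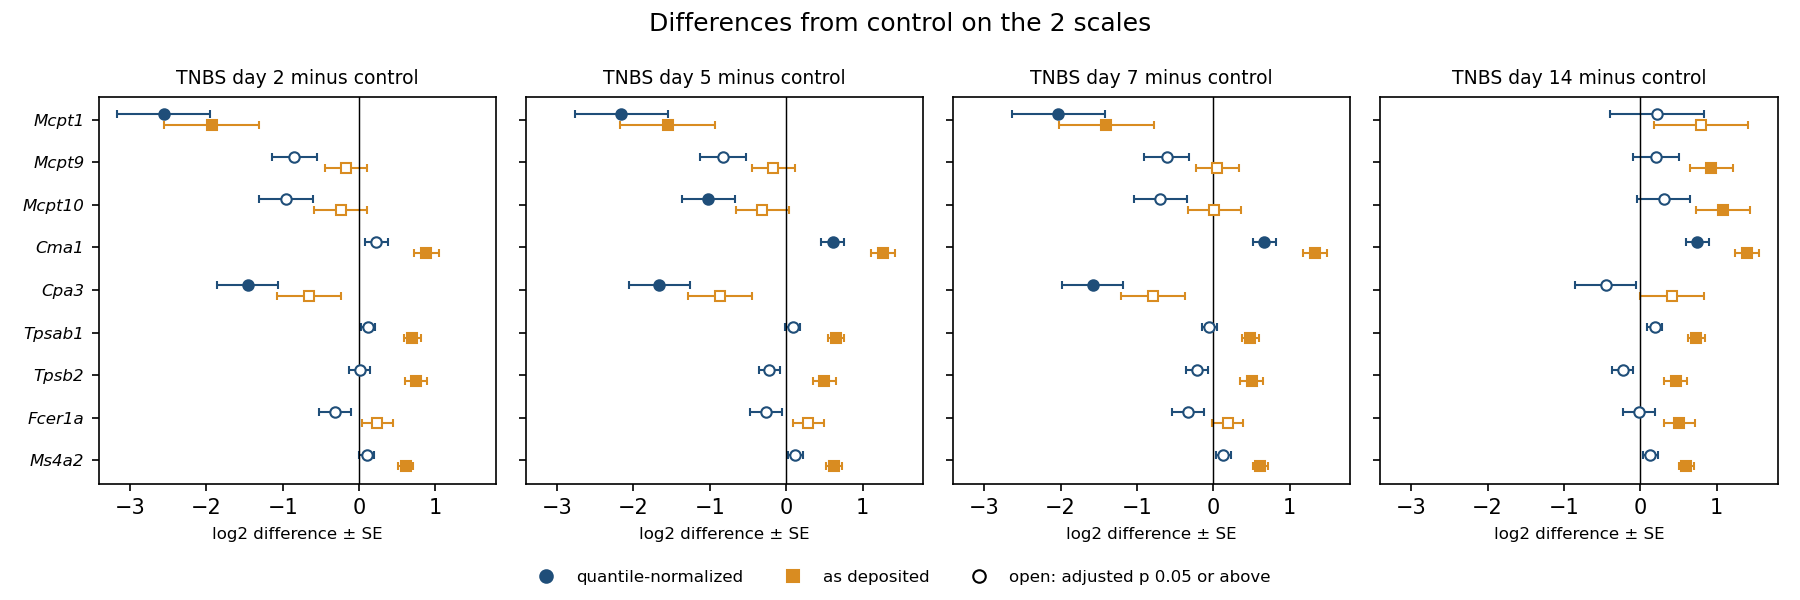
Log2 difference from control (± SE) of the 9 measured genes on each TNBS day, after quantile normalization (circles) and as deposited (squares). Filled symbols have an adjusted p under 0.05, positive values are higher in TNBS, and Mcpt1 is filled on the left of 0 on both scales on days 2, 5 and 7 and Cma1 on the right on days 5, 7 and 14.

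The TNBS arrays share 1 deposited scale, so the days were compared with each other as deposited. Day 14 read higher than the earlier days for Mcpt1, Mcpt9, Mcpt10 and Cpa3, but no member passed in any of the 6 pairs of days. For Mcpt1 the log2 difference of day 14 was 2.72 ± 0.72 from day 2 (adjusted p = 0.338), 2.34 ± 0.72 from day 5 (0.123) and 2.19 ± 0.72 from day 7 (0.098), and all day 14 arrays lay above all arrays of each earlier day. For Cpa3 these were 1.07, 1.29 and 1.21, with adjusted p of 0.563, 0.198 and 0.177. For Mcpt10 they were 1.32, 1.39 and 1.07, with adjusted p of 0.405, 0.104 and 0.152.

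An unadjusted p under 0.05 was found for 5 of the 9 genes in day 14 against day 2, for 4 in day 14 against day 5, for 4 in day 14 against day 7, for 1 in day 7 against day 2, and for none in the other pairs. The share of all probe sets with an unadjusted p under 0.05 was 8.65%, 16.1%, 19.1% and 12.1% in those 4 pairs, 9.16% in day 5 against day 2 and 6.28% in day 7 against day 5. After adjustment, 0.00966% of all probe sets were called in day 5 against day 2, 0.915% in day 7 against day 2, 0.0193% in day 14 against day 2, 0.0193% in day 7 against day 5, 0.918% in day 14 against day 5 and 4.50% in day 14 against day 7. The F test among the 4 TNBS days called 2.34% of all probe sets and none of the members, whose adjusted p ran from 0.122 for Mcpt1 to 0.999 for Ms4a2. In it 3 members had an unadjusted p under 0.05, as had 16.4% of all probe sets. Without day 5 replicate 1, day 14 was called higher than day 5 for Mcpt1 (3.28, adjusted p = 0.0152), Mcpt10 (1.86, 0.0184), Mcpt9 (1.39, 0.0391) and Cpa3 (1.82, 0.0441), and the F test called 2 members. That array read highest on day 5 for these genes. With any other array of these days left out, none of these genes was called. Their adjusted p then reached 0.473 for Mcpt1, 0.393 for Mcpt10, 0.453 for Mcpt9 and 0.534 for Cpa3.

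Single arrays carried much of the spread. Day 5 replicate 1 was the highest of the 9 arrays of days 2, 5 and 7 for 7 of the 9 genes, and control replicate 1 was the lowest control for 7 of the 9. The 10 enterocyte and goblet cell markers averaged 11.7, 10.8 and 11.0 on TNBS day 2, 11.6, 10.7 and 11.0 on day 5, 10.4, 11.4 and 11.3 on day 7, 11.7 to 11.8 on day 14 and 11.4 to 11.7 on control arrays. Day 5 replicate 1 was high for them too. Of these markers, 1 had fallen on both scales on days 2 and 5, 2 had on day 7 and none on day 14. Over all probe sets, 0.522%, 1.09%, 1.07% and 0.135% fell on both scales on days 2, 5, 7 and 14. On those days 9.13%, 12.1%, 12.4% and 5.61% rose, and the counts of each marker list are read against these shares. Slc26a3, an anion exchanger of surface enterocytes, fell by 1.66, 1.50 and 1.47 on days 2, 5 and 7 (adjusted p = 0.0119, 0.0146 and 0.0154). Its calls were lost without day 2 replicate 2 (0.094) or 3 (0.0636), day 5 replicate 2 (0.0725) or 3 (0.0927), or day 7 replicate 1 (0.108). The 7 neutrophil markers averaged 5.37 to 7.40 on TNBS day 2, 6.88 to 8.02 on day 5, 7.32 to 8.46 on day 7, 4.49 to 5.15 on day 14 and 3.71 to 3.92 on control arrays, and 5, 6, 6 and 2 of them rose on days 2, 5, 7 and 14. The 7 fibroblast and mesothelial markers averaged 7.32 to 7.96 on TNBS day 2, 8.02 to 8.75 on day 5, 8.68 to 8.94 on day 7, 7.32 to 7.96 on day 14 and 7.35 to 7.67 on control arrays. Of these 7, 5 rose on day 5 and 6 on day 7, and none on days 2 or 14. Of 8 smooth muscle markers, 2 fell on day 2, 3 on day 5, 1 on day 7 and 2 on day 14. Of 11 cytotoxic T and NK cell markers 2 rose on day 7, and of 5 B and plasma cell markers 1 fell on day 5 and 1 rose on day 7. The part of these shifts in cell content in the member differences was not tested. The 7 basophil and eosinophil markers, whose cells also carry the IgE receptor, averaged 4.48 to 4.65 on TNBS arrays and 4.37 to 4.49 on control arrays, and 2, 1, 2 and 0 of them rose on days 2, 5, 7 and 14. These were Ccr3, the eotaxin receptor, by 0.45 on day 2 (adjusted p = 0.00775) and 0.30 on day 7 (0.0431), and Cd63, a granule membrane protein of many cell types, by 0.32 on day 2, 0.35 on day 5 and 0.46 on day 7, whose sign turned with median centring (-0.14, -0.17 and -0.04). Ccr3 read low, at a median percentile of 14.1 on control arrays and 31 on day 2. Without day 2 replicate 2, neither gene was called on day 2 (adjusted p = 0.0532 for Ccr3 and 0.208 for Cd63). The day 2 call of Cd63 was also lost without day 2 replicate 3 or control replicate 2, 3, 4 or 5 (up to 0.101), its day 5 call without day 5 replicate 2 or 3 (up to 0.0937), and the day 7 call of Ccr3 without day 7 replicate 2 or 3 or control replicate 1, 2 or 3 (up to 0.225).

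Several genes of the receptor's signalling chain rose. Of 15 measured genes of IgE receptor signalling, 3 rose on day 2 (Fcer1g, Lyn and Fyn), 7 rose on day 5 and on day 7 (also Syk, Lcp2, Plcg1 and Inpp5d), and none passed on both scales on day 14. Over all probe sets, 9.13% rose on day 2, 12.1% on day 5, 12.4% on day 7 and 5.61% on day 14. After normalization, with or without the deposited scale, 9.87%, 14.5%, 15.9% and 6.09% were lower on those days. The counts of the lists that follow are read against the same shares. None of the 15 fell on both scales, where at most 1.09% of all probe sets did on any day, and 1 was lower after normalization only on day 2 and 1 on day 7. Fcer1g, the gamma chain that the receptor shares with the Fc receptors of macrophages and neutrophils, rose by 2.32 on day 2 (adjusted p = 0.000574), 3.27 on day 5 (2.29e-05) and 3.77 on day 7 (5.83e-06). It was lower on day 14 than on day 7 by a deposited difference of -3.01 (adjusted p = 0.000821). The adaptor Lcp2 rose by 1.74 on day 5 (adjusted p = 0.00461) and 2.16 on day 7 (0.000906). On day 2 the kinase Lyn lost its call without day 2 replicate 2 (adjusted p = 0.0602) or 3 (0.24) or control replicate 3, 4 or 6 (up to 0.0541), and Fyn without day 2 replicate 2 (0.0692) or 3 (0.12). The kinase Syk lost its call on day 5 without any 1 of the day 5 or control arrays but control replicate 2 (0.0532 to 0.146), and on day 7 without any 1 of the day 7 arrays (0.0537 to 0.104). The 9 macrophage markers averaged 7.09 to 8.21 on TNBS day 2, 7.88 to 8.81 on day 5, 8.06 to 8.58 on day 7, 6.48 to 7.29 on day 14 and 6.19 to 6.57 on control arrays. Of these 9, 8 rose on day 2, 8 on day 5, 9 on day 7 and 1 on day 14, and their part in the rise of Fcer1g was not tested.

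Of 17 measured genes of mediator synthesis and granules, 4 rose on day 2, 5 on day 5, 6 on day 7 and 1 on day 14. None fell on both scales, and 2, 1 and 3 were lower after normalization only on days 2, 5 and 7. The gene that rose on day 14 was Alox5, the 5-lipoxygenase of leukotriene synthesis, by 0.52 (adjusted p = 0.00909), and without day 14 replicate 3 this call was lost (0.0637). Alox5 also rose by 0.36 on day 2 (0.0397) and by 0.36 on day 5 (0.032). Its day 2 call held without control replicate 2 or 5 and was lost without any 1 of the other 7 arrays (0.0605 to 0.134), and its day 5 call was lost without day 5 replicate 1 or 3 or control replicate 1, 3 or 6 (0.0574 to 0.112). Srgn, the core protein of the proteoglycan that holds proteases in granules of mast cells and other leukocytes, rose by 2.81 on day 5 (adjusted p = 0.000236) and 3.33 on day 7 (4.76e-05). Its rise of 1.62 on day 2 (0.0139) was lost without day 2 replicate 2 (0.0935) or replicate 3 (0.0997). Hdc, which makes histamine, was lower on day 2 by -0.49 after normalization only (adjusted p = 0.00854, deposited scale 0.10 and 0.481), and without day 2 replicate 3 this too was lost (0.0553). It read low, at a median percentile of 33.2 on control arrays and 18.9 on day 2.

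Of 6 measured inhibitors of chymase and tryptase, 2 rose on day 2, 2 on day 5, 1 on day 7 and none on day 14, and 1 was lower after normalization only on day 7. Slpi, a secreted inhibitor of serine proteases made by epithelia and neutrophils, rose by 2.98 on day 2 (adjusted p = 0.000425), 4.31 on day 5 (1.37e-05) and 4.59 on day 7 (6.16e-06). On day 14 it was lower than on day 7 by -3.34 as deposited (0.0025).

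Of 12 measured genes of mast cell identity and growth, none passed on both scales on day 2 or day 14, and Il1rl1, Il33 and Il3ra rose on days 5 and 7. On days 2, 5, 7 and 14, 3, 2, 2 and 1 of the 12 were lower after normalization only. Il1rl1, the receptor of interleukin 33, rose by 1.04 on day 5 (adjusted p = 0.0426) and 1.07 on day 7 (0.0356). Its day 5 call was lost without day 5 replicate 2 (0.339) or any control but replicate 5 (up to 0.077), and its day 7 call without day 7 replicate 1 (0.224) or 3 (0.0586) or control replicate 1, 2 or 6 (up to 0.0644). The calls of Il33 were lost without day 5 replicate 2 or 3 or day 7 replicate 1 or 3 (0.0866 to 0.165), and that of Il3ra on day 7 without replicate 1 (0.0877) or 3 (0.0932). Kit, the stem cell factor receptor that mast cells share with the interstitial cells of Cajal, differed by 0.17 on day 2, 0.00 on days 5 and 7 and 0.24 on day 14 (adjusted p 0.162 to 0.989). Kit read low, at a median percentile of 24 on control arrays. Its ligand Kitlg was lower after normalization only, by -0.58 on day 2 (0.0149), -0.72 on day 5 (0.00288) and -0.77 on day 7 (0.00148), with -0.15, -0.26 and -0.31 on the deposited scale. The day 2 call was lost without day 2 replicate 2 (0.063) or replicate 3 (0.0937).

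Of 13 further listed mast cell and related proteases, 4 were measured. Gzmb, a granzyme of cytotoxic lymphocytes, rose on day 5 by 0.55 (adjusted p = 0.0111), a call lost without day 5 replicate 1 (0.0826). Mcpt4, another chymase of the cluster, was lower after normalization only, by -0.50 on day 2 (0.0149), -0.49 on day 7 (0.0105) and -0.45 on day 14 (0.0344). On the deposited scale Mcpt4 differed by 0.06, 0.04 and 0.07. It read low, at a median percentile of 28 on control arrays, 12.5 on day 2, 9.61 on day 7 and 12.7 on day 14. The calls were lost without day 2 replicate 2 (0.0815), day 7 replicate 1 (0.0522), any 1 of the day 14 arrays (0.0625 to 0.149) or, on day 14, control replicate 3 (0.0579) or 5 (0.0562). Mcpt8 and Mcpt1l1 passed on no day after normalization, with adjusted p between 0.179 and 0.977. Their median percentile on control arrays was 2.75 and 3.73, near the bottom of the array, where a fall would be hard to see. Mcpt3, a chymase gene of the cluster outside that list and added after its values were seen, passed on no day after normalization (0.20 on day 5, adjusted p = 0.562) and was higher as deposited on day 5 (0.75, 0.0042) and day 14 (0.62, 0.013).

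**Figure D5:**
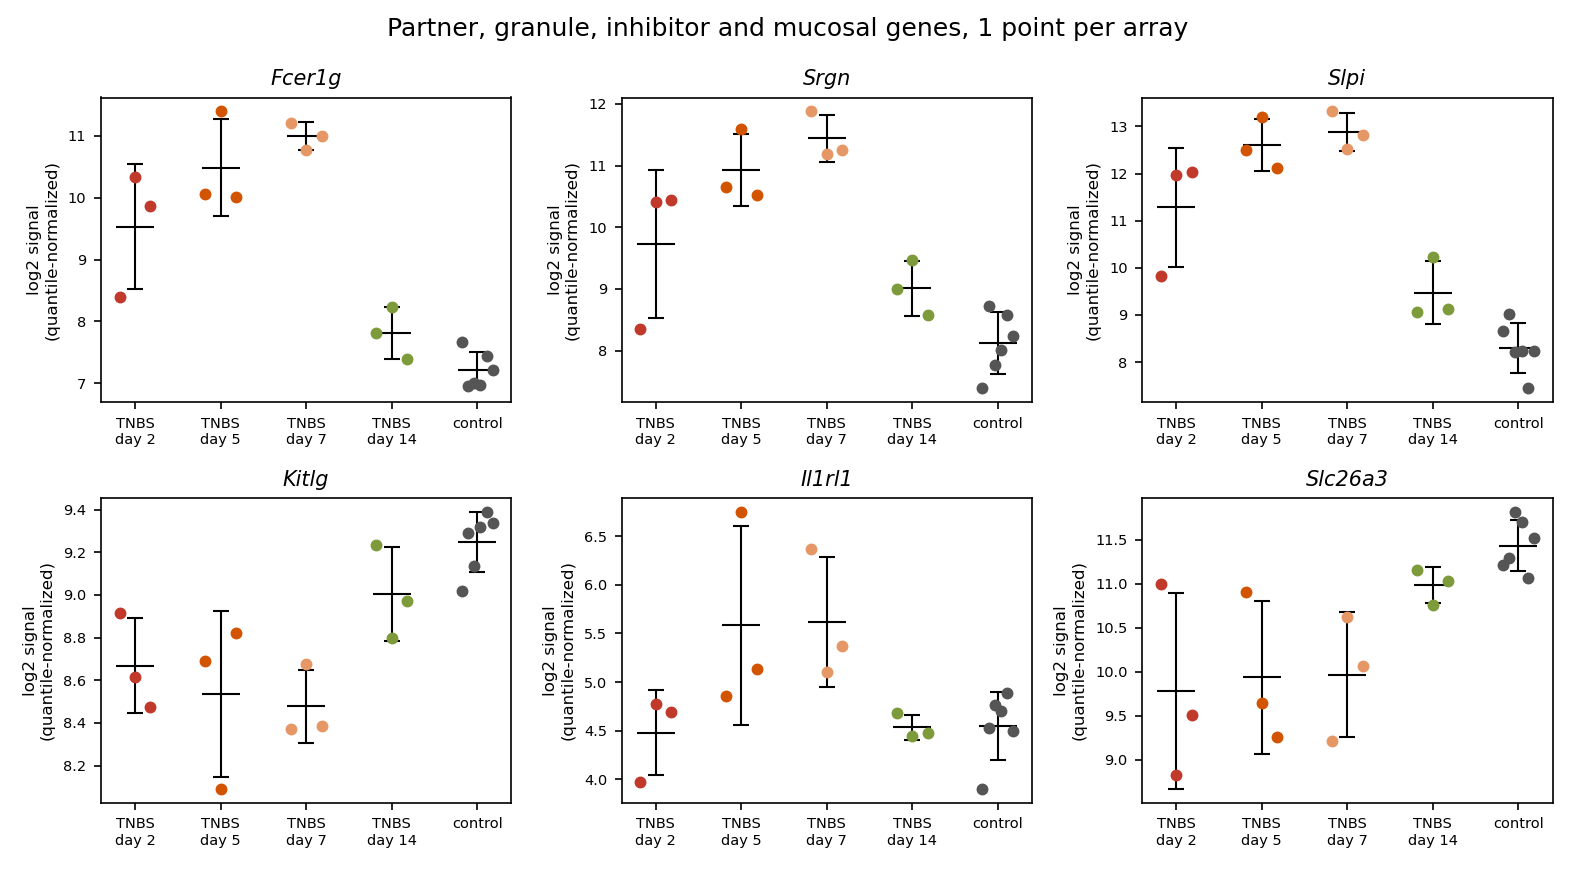
Quantile-normalized log2 signal of Fcer1g, Srgn, Slpi, Kitlg, Il1rl1 and Slc26a3, 1 point per array, with the group mean (wide bar) and SD (error bar), for 3 arrays per TNBS day and 6 control arrays. Fcer1g reached 10.8 to 11.2 on day 7, against 6.96 to 7.68 on control arrays, and Slc26a3 lay below the controls on days 2, 5 and 7.

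Pearson r of Mcpt1 with other members over the 18 arrays was 0.927 for Cpa3, 0.923 for Mcpt10 and 0.902 for Mcpt9. With the remaining members it ran from -0.071 to 0.715. Members and symbols starting with LOC or RGD were left out of the search that follows. Among the genes left, those most like Mcpt1 in pattern were Gmcl1, Scin, Tmem205, Crym and Amn. Their r ran from 0.835 to 0.897 over the 18 arrays and from 0.823 to 0.917 over the 12 TNBS arrays. They were taken from 12279 probe sets in the upper 50% by mean. On the deposited scale r was 0.30 for Gmcl1 and 0.838 for Scin. Those most like Cpa3 were Cela1, Gopc, Gmcl1, Rimoc1 and Lmbrd1, with r from 0.860 to 0.892, and from 0.724 to 0.871 over the 12 TNBS arrays. On the deposited scale their r was 0.29 for Gopc, 0.27 for Gmcl1 and 0.611 to 0.799 for the others. Those most like Fcer1a were Gopc, Vamp7, Atad1, Rnf111 and Mapkap1, with r from 0.739 to 0.838, and from 0.686 to 0.822 as deposited. Over the 12 TNBS arrays r was 0.474 for Vamp7, 0.574 for Mapkap1 and 0.678 to 0.78 for the others, and Fcer1a read near the bottom of the scale. These correlations describe 18 arrays that share groups, normalization and cell content.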

How the data were processed

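The deposited table holds 31099 probe sets on 18 arrays as log2 signals that the authors normalized with affyPLM, per the labels' protocols. The sources used here do not give the version, the background step, the base of the logarithm or whether arrays were normalized jointly, and the values range like log2. All 18 arrays were quantile-normalized together and 57 control probe sets were then left out. limma 3.58.1 in R 4.3.3 fitted 1 coefficient per group to the 18 arrays, with two-sided tests and Benjamini-Hochberg adjustment over 31042 probe sets. Days were compared on the deposited values. Where several probe sets named only 1 gene, the one of highest mean represents it. The members and gene lists were chosen with earlier results of these data known. Named from other lists were up to 4 genes with the smallest F test p among days and a fixed panel (Kit, Kitlg, Hdc, Fcer1g, Srgn, Gata2, Il1rl1, Cd3e, Slc26a3). Syk, Lyn, Il33, Plcg1, Inpp5d, Alox5, Ccr3, Cd63 and the measured proteases are named as the genes behind a count. Genes of similar pattern are the 5 with the highest Pearson r outside the members and outside symbols starting with LOC or RGD. Replicate numbers are not stated to pair rats. The fit was tested on simulated data. Settings tried were the deposited scale, median centring, a filter on low probe sets, trend and robust priors, array weights, only the 2 groups compared, a replicate block, a threshold of 0.01 and each array left out in turn. The requirement of both scales was added after the data were seen. Precision is limited by 3 arrays per day. Window sequences are from RefSeq, GRCr8, aligned with Biopython 1.88.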

Additional observations from a re-analysis of the deposited data

Results flagged for a closer look

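For Cma1, control replicate 1 read 3.719 and lay apart below the other 5 control arrays, the nearest of which read 3.989. For the lower of the Ms4a2 probe sets, control replicate 5 read 4.125 and lay apart above the others, the nearest of which read 3.457. Both gaps exceed the critical share of 0.625 of the range of the 6 control arrays, and chance alone marks about 5% of groups, of which 11 were looked at. Groups of 3 arrays were not looked at in this way.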

How the results depend on the processing

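The number of members called against control depended on the scale. As deposited it was 5 on day 2, 5 on day 7 and 7 on day 14, where control arrays lie lower as a whole. With median centring it was 5 on day 2 and 6 on day 7. On both scales it was 1 on day 2 and 2 on day 5. At an adjusted p under 0.01 it was also 1 on day 2 and 2 on day 5. Without the lowest 50% of probe sets by mean, Mcpt1 and Cpa3 were the only members left, and Cma1 was among those taken out. The number called was then 2 on day 5 and 0 on day 14. Leaving out single arrays gave 1 to 3 on day 2, 1 to 5 on day 5, 1 to 3 on day 7, 0 to 4 for day 14 against day 5 and 0 to 2 for the F test. A fit of only the groups compared called 1 member in day 14 against day 2 and 1 in day 14 against day 7.

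Deviations of arrays with the same replicate number correlated between -0.313 and 0.47 (median 0.07), and those with different numbers between -0.564 and 0.338 (median -0.02), so the numbers were not taken as pairs. With the replicate number as a block, 0 members were called on day 2, 0 on day 5 and 1 on day 7. That fit gives no weight to the control arrays whose numbers no TNBS array shares, and so rests on fewer samples.

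Among the genes run through every setting, each read from 1 probe set, values that turned sign and were called on 1 of the scales did so on the deposited scale, apart from Mcpt1l1 on day 5 (-0.31) and Cd63 on day 2 (-0.137), day 5 (-0.168), day 7 (-0.0418) and day 14 (-0.29), which turned with median centring. Among members these were Tpsb2 on day 5 (0.50), day 7 (0.51) and day 14 (0.47), Tpsab1 on day 7 (0.48) and Fcer1a on day 14 (0.51). The lower of the Ms4a2 probe sets, compared on these scales alone, also turned on day 2 (0.35) and day 5 (0.36). Among the other genes they were Hdc on day 2 (0.10), day 5 (0.35), day 7 (0.37) and day 14 (0.36), Kit on day 5 (0.56) and day 7 (0.54), Mcpt4 on day 2 (0.0588), day 7 (0.0384) and day 14 (0.0667), and on day 2 Gata2 (0.37), Mcpt8 (0.43), Mcpt1l1 (0.33), Gzmb (0.49) and Mitf (0.67). Over 61 genes outside the members that were compared on both scales, 25 of 244 differences turned in this way, in 15 genes, all of them higher as deposited. The median of all probe sets moved by 0.54 to 0.59 between these scales. Of all single-gene values under an alternative, 2305 stayed called or stayed uncalled, 183 lost the call and 93 gained it. A further 24 turned sign and were called in the main fit or under the alternative. Values called under neither are among the 2305 even where their sign changed. Where no array or scale is named, the cause was not tested.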
